A study of Arabidopsis thaliana with 6 samples.

Results

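The genes described here encode proteins that attach to the plastid-encoded RNA polymerase of Arabidopsis thaliana. They were chosen by locus: PTAC3, PTAC2, PTAC10, PTAC12, FLN1, PTAC14, PTAC6, TRXZ, MURE and PTAC7, which is 10 genes. Of these, 9 were among the 5330 genes in the tables used here, and TRXZ (AT3G06730) was not listed. Whole 14-day-old seedlings of the ecotype Columbia-0 were compared, wild type (Col-0) with a line whose genotype label is epl1a epl1b, with 3 libraries each; the design text says that these came from 3 independent experiments. All plants were grown on medium with 1% sucrose at 22 °C under 16 h of light and 8 h of darkness a day. They were harvested 8 h after lights on. Stratification lasted 3 days at 4 °C, and the light intensity was 100 µmol m⁻² s⁻¹. EPL1A and EPL1B are copies of a gene for a component of NuA4, which acetylates histone H4, and the series title asks how NuA4 coordinates nuclear and plastid transcription. The 2 tables hold only the genes that passed the authors' thresholds, 3524 listed higher and 1806 listed lower in the line labelled as the mutant, where the thresholds were 1 for the size of the log2 fold change and 0.05 for the false discovery rate.

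Chloroplast genes are read by a bacterial-type RNA polymerase whose core subunits (rpoA, rpoB, rpoC1 and rpoC2) are encoded in the plastid genome itself. In green tissue this core carries a set of nuclear-encoded attached proteins and takes up one of several nuclear-encoded sigma factors, which guide it to promoters. Plants that lack an attached protein are typically albino or pale, because photosynthesis genes of the plastid are then poorly transcribed, while a phage-type polymerase encoded in the nucleus continues to read housekeeping genes. PTAC3, PTAC2 and PTAC10 have nucleic acid-binding domains. PTAC14 has a SET domain as in protein methyltransferases, FLN1 resembles fructokinases, MURE resembles a bacterial cell wall ligase, and TRXZ is a thioredoxin that binds FLN1. PTAC12, also named HEMERA, and PTAC6 occur in the nucleus as well, where they act in phytochrome signalling, and PTAC7 is a small protein needed to assemble the complex.

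The sequences directly upstream are shown for some of the member genes. These are PTAC7, which fell most, MURE, which together with PTAC6 fell least, and PTAC2, which carried a G-box. Each run is the 250 bases before the annotated gene start, read 5′ to 3′ on the strand of the gene from the RefSeq TAIR10.1 genome, and holds no other annotated gene. PTAC7 lies on the plus strand of chromosome 5 (window chr5:8277450-8277699), MURE on the plus strand of chromosome 1 (chr1:23614090-23614339), and PTAC2 on the minus strand of chromosome 1 (chr1:28122578-28122827). Capitals mark the matches found to any of 5 motifs, searched on both strands: the G-box CACGTG, the GLK-bound sequence AGATTCT, the I-box GATAAG, the site II element TGGGCC and the CCAAT-box sequence CCAATC.
PTAC7: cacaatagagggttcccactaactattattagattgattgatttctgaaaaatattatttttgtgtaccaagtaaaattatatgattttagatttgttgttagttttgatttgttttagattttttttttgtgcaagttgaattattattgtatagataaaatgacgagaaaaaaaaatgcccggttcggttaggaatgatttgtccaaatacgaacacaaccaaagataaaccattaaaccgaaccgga
MURE: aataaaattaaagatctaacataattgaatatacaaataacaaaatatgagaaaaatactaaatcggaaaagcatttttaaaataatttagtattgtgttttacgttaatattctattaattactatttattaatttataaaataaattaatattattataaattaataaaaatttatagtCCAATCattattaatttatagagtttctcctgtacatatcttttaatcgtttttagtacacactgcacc
PTAC2: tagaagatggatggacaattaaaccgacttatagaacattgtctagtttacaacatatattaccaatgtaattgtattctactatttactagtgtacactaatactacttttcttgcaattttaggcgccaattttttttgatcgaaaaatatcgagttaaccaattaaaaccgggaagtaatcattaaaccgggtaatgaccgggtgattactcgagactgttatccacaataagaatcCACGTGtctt
The G-box was found upstream of 2 of the 10 genes, PTAC3 and PTAC2, and in 6.49% of 27438 windows of the same length before nuclear protein-coding genes. In PTAC3 it began 48 bases before the gene start and in PTAC2 10 bases before it. The window of PTAC3 overlaps another annotated gene, AT3G04270, and those of PTAC10, FLN1, PTAC14, PTAC6 and TRXZ overlap other genes too. The CCAAT-box sequence was found upstream of MURE alone and in 10.2% of all windows. The GLK-bound sequence, the I-box and the site II element were found upstream of 0 of the 10 genes and in 6.23%, 12.3% and 13.7% of all windows. No matches overlapped. A match describes these letters only, and PTAC7, which fell most, carried none of the 5 motifs in this window.

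All 9 listed members were lower in the line labelled as the mutant and 0 were higher. Their transcript levels fell to between 19.7% and 49.2% of the Col-0 mean, with PTAC7, PTAC14 and PTAC2 falling most and MURE and PTAC6 least. Of the 27444 nuclear protein-coding genes of the annotation, the authors listed 6.31% as lower and 12.3% as higher. Normalised reads are the deposited counts divided by the authors' scaling factor for each library, as recovered from their fold changes. The groups of no listed member overlapped in normalised reads. With lower epl1ab-labelled values this held for 1805 of all 5330 listed genes (33.9%). As 1806 genes were listed lower, it held for nearly every one of them and does not set the members apart. A listed gene had passed the authors' thresholds in these same libraries, so the groups of a listed member had to differ, and the count of listed members is not a separate test. In the edgeR quasi-likelihood fit all 9 were called lower at a Benjamini-Hochberg adjusted p under 0.05, against 36.9% called lower and 63.1% called higher among the 4773 listed genes in the fit, so that every gene in it was called. These shares depend on the scaling: with DESeq2 and its size factors from the listed genes, 1806 of 5330 genes were called lower and 1585 higher. The median log2 fold change of the 9 members was -1.68, beside -1.44 for the 1761 genes called lower and 1.26 for all 4773. RNA came from whole seedlings, so fewer green cells and less of each transcript per cell cannot be told apart.

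Before the members are taken singly, 3 facts about the libraries bear on them. Mean normalised reads of EPL1A were 367.2 ± 9.59 in Col-0 and 124.5 ± 3.34 in the other line (SD, 3 libraries each). Those of EPL1B were 719.5 ± 57.5 and 17051 ± 68.8, so higher in the line labelled as its mutant. Reads counted per gene do not show whether a transcript is whole or functional, and the genotype was not tested. The libraries are therefore called epl1ab-labelled and every direction is one between labels. Of 16 seed maturation genes, 15 were listed higher and 0 lower, and their summed normalised reads were 43.9 to 410.0 in Col-0, 1172 in epl1ab-labelled replicate 1, and 204923 and 297253 in replicates 2 and 3. LEC1, an embryo regulator, was at 0 reads in all Col-0 libraries and in epl1ab-labelled replicate 1. It had only 3 and 19 reads in epl1ab-labelled replicates 2 and 3. Other embryo regulators differed from it. LEC2 had 15.6, 17.4 and 15.9 normalised reads in epl1ab-labelled replicates 1, 2 and 3, and 0.0 to 2.0 in Col-0. In epl1ab-labelled replicate 1 FUS3 had 30.3 (Col-0 6.1 to 16.1) and ABI3 had 0.9 (Col-0 0.0 to 5.0). Of 10 leaf mesophyll markers, 4 were listed lower and 0 higher, with sums of 995843 to 1085234 in Col-0 and 377487 to 444968 in the epl1ab-labelled libraries. Of 7 root markers, 3 were listed higher and 0 lower, with sums of 94568 to 110597 in Col-0 and 171373 to 263155 in the epl1ab-labelled libraries, and none of the listed leaf or root markers was at 0. The part of these markers in the members' values was not tested. With epl1ab-labelled replicate 1 as the only library of its group, the members' log2 fold changes ran from -2.19 to -0.87. edgeR called all 9 lower in that fit, with 1742 lower and 2787 higher calls among 4851 genes, but its spread comes from the Col-0 libraries alone and the lone library is assumed to vary like them.

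**Figure D1:**
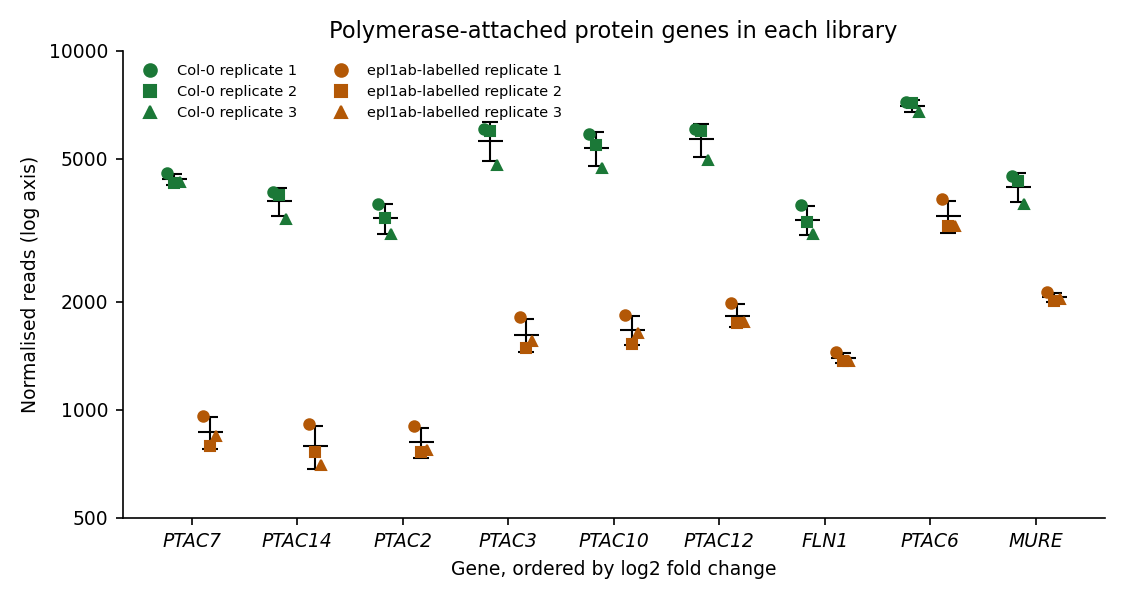
Normalised reads on a log axis for the 9 listed members in each of the 6 libraries, with Col-0 in green, epl1ab-labelled in brown, a marker shape for each replicate number, and bars for the mean ± SD of 3 libraries. The groups do not overlap for any member, and epl1ab-labelled replicate 1 is the highest of its group in all 9.

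PTAC7 (AT5G24314, chromosome 5, 8277700 to 8279400, plus strand, TAIR10) had 4571, 4276 and 4318 normalised reads in Col-0 replicates 1, 2 and 3, and 960.0, 790.9 and 846.0 in the epl1ab-labelled ones. The lowest Col-0 library thus lay far above the highest epl1ab-labelled one. The group means were 4388 ± 159.6 and 865.6 ± 86.2 (SD, n = 3 each). In edgeR the log2 fold change was -2.34 with an SE of 0.09 and an adjusted p of 1.03e-06. On the opposite strand PTAC7 overlaps AT5G24316, described as a proline-rich family protein, along 225 of its 861 exon bases. AT5G24316 had 0 reads in each Col-0 library and 8, 2 and 13 reads in epl1ab-labelled replicates 1, 2 and 3. These are few beside the 820 to 1109 reads of PTAC7 in the same libraries. The sources used here do not say whether reads were counted by strand.

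PTAC14 (AT4G20130, chromosome 4, 10878817 to 10882052, plus strand), the SET-domain protein, had 4043, 3967 and 3403 normalised reads in Col-0 and 912.3, 762.0 and 700.4 in the epl1ab-labelled libraries. Col-0 replicate 3 and epl1ab-labelled replicate 3 were the lowest of their groups, and the groups did not overlap. The group means were 3804 ± 349.8 and 791.6 ± 109.0 (SD, n = 3 each). In edgeR the log2 fold change was -2.27 with an SE of 0.12 and an adjusted p of 3.15e-06.

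Among the nucleic acid-binding members, PTAC2, a pentatricopeptide repeat protein, had 3751, 3420 and 3082 normalised reads in Col-0 and 901.1, 761.0 and 772.3 in the epl1ab-labelled libraries. Its edgeR log2 fold change was -2.07 ± 0.11 (SE) with an adjusted p of 2.65e-06. PTAC3, a SAP-domain protein, had 6068, 5967 and 4817 in Col-0 and 1807, 1485 and 1553 in the epl1ab-labelled libraries. For both genes Col-0 replicate 3 was the lowest of the wild-type libraries and still lay above every epl1ab-labelled library. For PTAC3, edgeR gave a log2 fold change of -1.80 ± 0.12 (SE) with an adjusted p of 6.97e-06. PTAC10, which carries an S1-type RNA-binding domain, had 5855, 5462 and 4724 normalised reads in Col-0 and 1838, 1527 and 1639 in the epl1ab-labelled libraries, which edgeR gave as a log2 fold change of -1.68 ± 0.11 (SE) with an adjusted p of 6.14e-06. PTAC3 and PTAC10 thus stood at 28.8% and 31.2% of their Col-0 means.

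The members that also occur in the nucleus fell by unequal amounts. PTAC12 had 6052, 5970 and 4962 normalised reads in Col-0 and 1987, 1745 and 1760 in the epl1ab-labelled libraries, which edgeR gave as a log2 fold change of -1.63 ± 0.10 (SE) with an adjusted p of 5.37e-06. PTAC6 had 7219, 7164 and 6732 normalised reads in Col-0 and 3861, 3257 and 3246 in the epl1ab-labelled libraries, which edgeR gave as a log2 fold change of -1.03 ± 0.09 (SE) with an adjusted p of 2.35e-05. The epl1ab-labelled mean of PTAC6 was 49.1% of its Col-0 mean, beside 32.3% for PTAC12. In the annotation PTAC12 and PTAC6 overlap an unlisted gene of the opposite strand along 22 and 18 exon bases.

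Of the enzyme-like members, FLN1 had 3716, 3339 and 3082 normalised reads in Col-0 and 1445, 1365 and 1371 in the epl1ab-labelled libraries, which edgeR gave as a log2 fold change of -1.28 ± 0.09 (SE) with an adjusted p of 7.00e-06. MURE had 4487, 4325 and 3733 in Col-0 and 2123, 2006 and 2038 in the epl1ab-labelled libraries, which edgeR gave as a log2 fold change of -1.02 ± 0.08 (SE) with an adjusted p of 1.86e-05. Their epl1ab-labelled libraries lay close together, with SDs of 44.5 and 60.1 normalised reads. In the authors' deposited table MURE and PTAC6 stood just inside the threshold of 1, with log2 fold changes of -1.02 and -1.03. The p-value of both was above 0 there, while that of the other 7 members was listed at 0. TRXZ was not listed, which says only that it missed at least 1 of the thresholds or was not tested, and its level is not analysed here. No 50-base stretch of the annotated transcripts of any of the 10 genes was found elsewhere in the TAIR10.1 genome.

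Levels of different members were compared as normalised reads per kilobase of annotated exon. In Col-0 PTAC7 stood first with 5097 ± 185.3 and PTAC2 last with 997.9 ± 97.7 (SD, n = 3). PTAC6 followed PTAC7 with 4090 ± 154.8, then PTAC12 with 2717 ± 291.3, and the ranges of these neighbours did not overlap. PTAC10 (2107 ± 226.2), FLN1 (1954 ± 184.5), PTAC14 (1902 ± 174.9) and PTAC3 (1823 ± 225.5) came next, each overlapping the next in range, and MURE (1347 ± 127.7) lay below them. In the epl1ab-labelled libraries the order was another one. PTAC6 stood first with 2007 ± 204.3, PTAC7 second with 1005 ± 100.1, and PTAC2 remained last with 236.9 ± 22.7 normalised reads per kilobase. PTAC7 overlapped PTAC12 (878.3 ± 65.0) in range. MURE, eighth in Col-0, stood with 662.0 ± 19.4 beside PTAC10 with 657.2 ± 62.0, and the ranges of this pair overlapped. PTAC14 moved from the sixth place to the eighth, apart in range from both neighbours.

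Because the tables hold selected genes, the scaling between libraries cannot be checked on unchanged genes, so the members were also compared within each library, where scaling cancels. The quantity was the share of each member in the summed reads per kilobase of the 9 listed members. PTAC7 held 22.7%, 22.2% and 24.7% in Col-0 and 14.2%, 13.6% and 14.3% in the epl1ab-labelled libraries. PTAC6 held 17.9%, 18.6% and 19.3% in Col-0 and 28.5%, 28.0% and 27.4% in the epl1ab-labelled libraries. The share of PTAC7 was thus different by -9.18 percentage points and that of PTAC6 by 9.37 points, each far beyond the spread between libraries. The difference was -3.12 points for PTAC14, -1.22 points for PTAC2 and -0.95 points for PTAC3, against 3.15 points for MURE and 2.41 points for FLN1. The groups did not overlap for these 7 genes. Each reached an exact permutation p of 0.1, two-sided, which is the smallest that 3 against 3 libraries allow, and 0.129 after Benjamini-Hochberg adjustment over 9 genes, so none could be called. PTAC12 held 12.3% ± 0.55 and 12.3% ± 0.12 (SD, n = 3; exact permutation p = 0.8) and PTAC10 held 9.54% ± 0.36 and 9.16% ± 0.25 (exact permutation p = 0.3), with overlapping groups. Shares add to a fixed sum, so a lower share of 1 member raises the others. With PTAC7 left out of the sum, the shares of PTAC12 and PTAC10 both differed by -1.77 points, each with an exact permutation p of 0.1. In that sum the difference was -4.83 points for PTAC14, -2.25 points for PTAC3, -2.05 points for PTAC2, 1.56 points for FLN1, 2.81 points for MURE and 8.30 points for PTAC6.

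**Figure D2:**
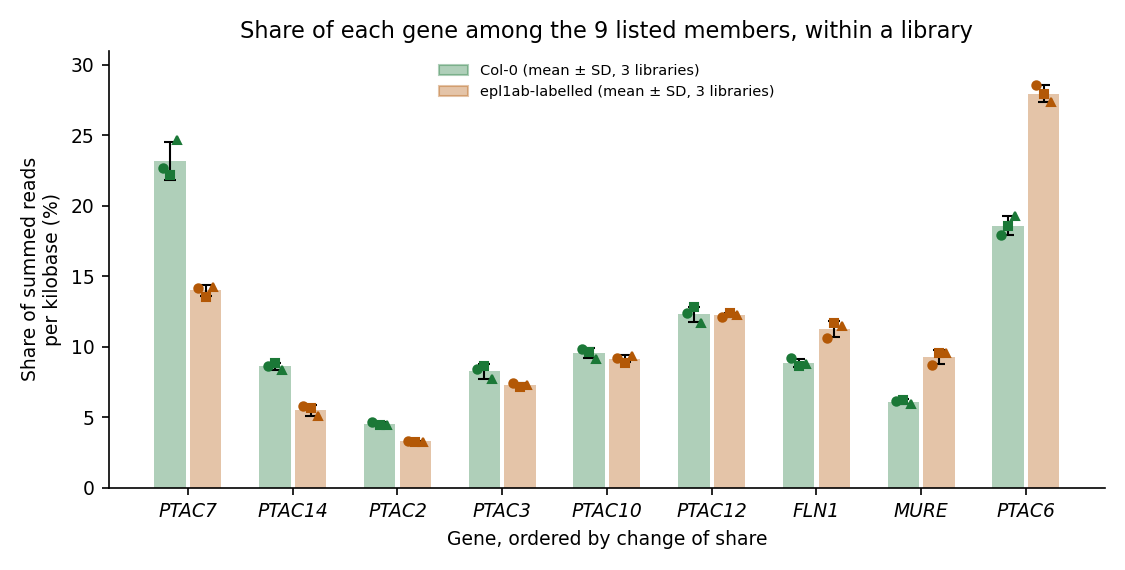
Share of each listed member in the summed reads per kilobase of exon of the 9 listed members within a library, in percent; bars are means ± SD of 3 libraries and points are single libraries. PTAC7 and PTAC6 move most, by -9.18 and 9.37 percentage points.

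The members also varied together between libraries of 1 genotype. Of the 3 Col-0 libraries, replicate 1 was the highest for all 9 members, and replicate 3 was the lowest for 8 of them, with PTAC7 as the exception. Among the 1436 genes listed lower with a Col-0 mean of at least 200 normalised reads, 30.2% were highest in Col-0 replicate 1 and 54.4% lowest in replicate 3. On the log2 scale the members' median deviation from the Col-0 mean was 0.11 in replicate 1, 0.04 in replicate 2 and -0.16 in replicate 3, beside 0.00, 0.03 and -0.03 for the 1436 genes. Within the other genotype, epl1ab-labelled replicate 1 was the highest for all 9 members and for 76.0% of the 1436 genes. It is also the epl1ab-labelled library with the lowest sum of seed maturation genes. Members and background genes were measured in the same libraries, and members are not replicates, so these values describe the libraries.

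**Figure D3:**
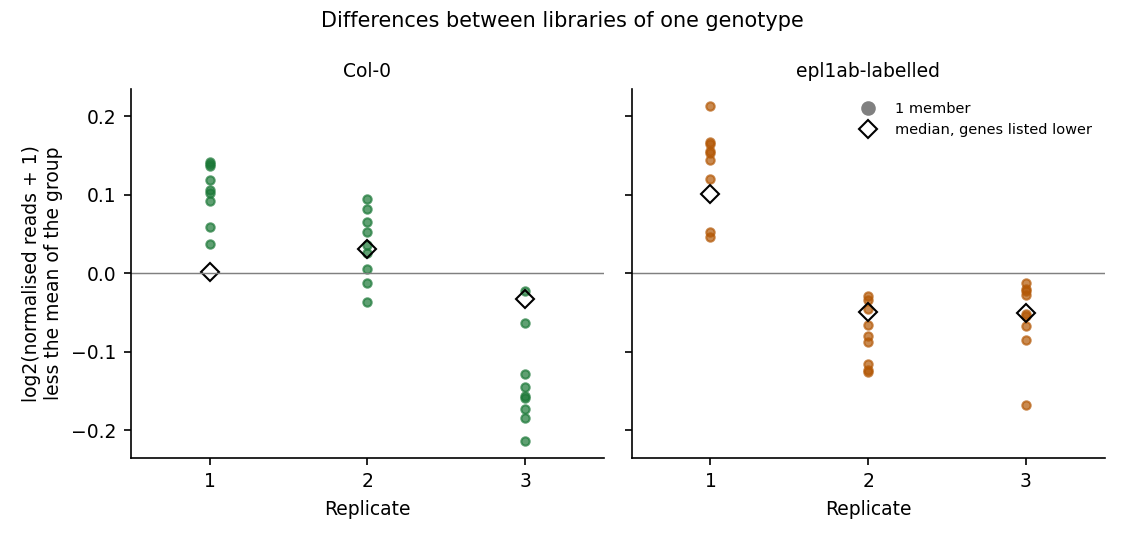
Log2(normalised reads + 1) of each of the 9 listed members less the mean of its genotype, by replicate, for Col-0 (left) and epl1ab-labelled libraries (right); open diamonds are medians of the 1436 genes listed lower with a Col-0 mean of at least 200. Members are high in Col-0 replicate 1 and low in replicate 3, where the diamonds lie near 0, and high in epl1ab-labelled replicate 1, where the diamond stands at 0.10.

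The remaining proteins of the same complex and its partners were mostly on the lower side as well. Of 32 other genes of plastid transcription, edgeR called 18 lower and 1 higher, with 13 not listed. In the same fit 36.9% of all 4773 genes were called lower and 63.1% higher, so that every gene was called. The median log2 fold change of the 19 tested was -1.51. FSD3 and FSD2, iron superoxide dismutases that are also attached to the polymerase, both fell. FSD3 had 3455, 3143 and 2787 normalised reads in Col-0 and 753.1, 734.0 and 710.4 in the epl1ab-labelled libraries, which edgeR gave as a log2 fold change of -2.09 ± 0.09 (SE) with an adjusted p of 1.69e-06. FSD2 had 2281, 2122 and 1922 in Col-0 and 875.1, 886.4 and 828.4 in the epl1ab-labelled libraries, which edgeR gave as a log2 fold change of -1.29 ± 0.09 (SE) with an adjusted p of 7.30e-06. Both lay within the range of the 9 members, and FSD3 lay near PTAC2. For both, too, Col-0 replicate 1 was the highest and replicate 3 the lowest Col-0 library.

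Of the polymerase core, rpoA was listed lower, and rpoB, rpoC1 and rpoC2 were not listed. The plastid transcript of rpoA had 96.0, 66.6 and 50.0 normalised reads in Col-0 and 32.0, 34.7 and 21.8 in the epl1ab-labelled libraries. These counts are low, and the edgeR log2 fold change of -1.27 ± 0.31 (SE) with an adjusted p of 0.0044 is the least precise of the plastid transcription genes. Of 6 sigma factors, SIG2, SIG6, SIG3 and SIG4 fell, by log2 fold changes of -2.01, -1.69, -1.66 and -1.66, SIG5 rose by 2.35, and SIG1 was not listed. RPOTP, the phage-type polymerase of plastids, fell by 1.04 on the log2 scale (SE 0.09; edgeR, adjusted p = 2.00e-05), and RPOTMP and RPOTM were not listed.

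Of 17 other proteins of plastid transcription and the nucleoid, 10 were called lower, 0 higher and 7 were not listed. As every gene in the fit was called, 36.9% of them lower, these calls restate the authors' selection. PTAC16, a thylakoid-associated protein, fell most: its mean normalised reads were 38279 ± 2156 in Col-0 and 8685 ± 1145 in the epl1ab-labelled libraries (SD, n = 3 each), an edgeR log2 fold change of -2.14 with an SE of 0.12. PRDA1 fell least, with a log2 fold change of -1.09 ± 0.10 (SE). FLN2, the partner of FLN1, had a log2 fold change of -1.35 ± 0.11 (SE), close to the -1.28 ± 0.09 of FLN1. PTAC18, CURT1B, PTAC15, PTAC5, PRIN2, VIPP1 and PTAC17 lay between, at log2 fold changes of -1.73, -1.59, -1.58, -1.51, -1.50, -1.43 and -1.37. RCB and NCP, which act in assembly of the polymerase complex, were among the 7 not listed, with PTAC1, PTAC9, PTAC11, PTAC13 and MTERF5.

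**Figure D4:**
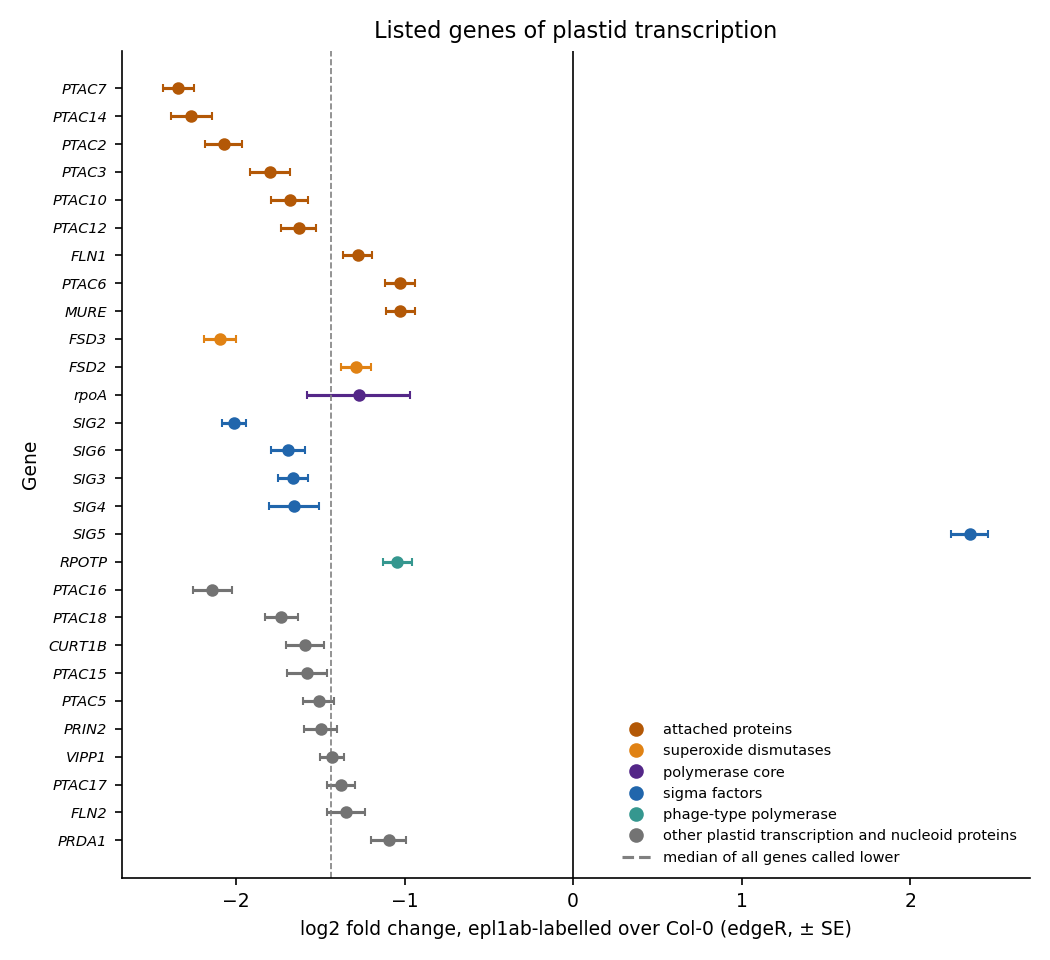
Log2 fold change, epl1ab-labelled over Col-0, with SE from edgeR, for the 9 listed attached proteins and the 19 other listed genes of plastid transcription, coloured by role; the dashed line is the median of all genes called lower, -1.44. SIG5 at 2.35 is the only gene to the right of 0, and the 9 attached proteins span -2.34 to -1.02.

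Transcripts that the polymerase makes were set beside its attached proteins. Of 14 plastid genes known to depend on it, the authors listed 11 lower and 0 higher, and of 4 plastid genes read mainly by the phage-type polymerase (accD, ycf1, ycf2 and clpP1) they listed 0 in either direction. Summed over the 11 genes, Col-0 libraries had 6545, 6545 and 4969 normalised reads and epl1ab-labelled libraries 2810, 2624 and 2158. The sums rest largely on a few genes: in Col-0 psbA had 2075, 2097 and 1579 and rbcL 1679, 1645 and 1277. Even these lay far below the nuclear leaf marker LHCB1.3, which had 612202, 680538 and 681124 in Col-0. How fully the libraries captured plastid transcripts was not tested. Others were read thinly, with 1 to 8 reads of psbK and 5 to 11 of psbF in the epl1ab-labelled libraries. The rbcL transcript stood at 34.9% and psbA at 50.0% of the Col-0 mean. A gene that is not listed may have changed by less than the threshold or been read too thinly to pass it. The 11 of 14 and the 0 of 4 were therefore not tested against each other. The listing shares given above cover nuclear genes only, so no share of all plastid genes stands beside these counts.

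Listed genes outside the 9 members were ranked by the likeness of their 6 values to those of PTAC7 and of PTAC14. Likeness was the Euclidean distance between log2(normalised reads + 1) values less the Col-0 mean, over the 6 libraries and 2108 genes with a Col-0 mean of at least 200. RPL4 and RPL9, named as ribosomal proteins, were among the nearest to PTAC7, at 0.11 and 0.12. The nearest member, PTAC14, lay at 0.28. That member was picked from far fewer genes than the 2108, which by itself makes a larger smallest distance likely. The distances therefore do not show that PTAC7 was less like the members than like other genes. Nearest to PTAC14 were Y3IP1 at 0.10, CYP97B3 at 0.14 and emb2726, described as an elongation factor Ts, at 0.15. Y3IP1, described as a Ycf3-interacting protein of the chloroplast, had 5042, 5059 and 4511 normalised reads in Col-0 and 1132, 932.7 and 892.0 in the epl1ab-labelled libraries. These distances reflect both the size of the fall and the pattern between replicates, and they describe the same 6 libraries.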

How the data were processed

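RNA was sequenced from 6 libraries of whole seedlings, 3 per genotype label. A stranded total RNA kit with ribosomal RNA depletion and single-end sequencing of 50 bases were used, per the labels' protocols. TAIR10 and DESeq2, without a version, come from the submitters' processing notes; the aligner and the counter are not stated in these sources. Per the file headers, the authors deposited raw read counts per gene and library, p-values with false discovery rates, and log2 fold changes. Tested on the values, the lowest absolute log2 fold change was 1.00 and the highest false discovery rate 0.0495. Reads in listed genes came to between 7355421 and 10938542 per library, which is not library depth.

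From these, the authors' between-library scaling was recovered by least squares from their log2 fold changes, over the 1774 genes that had 200 reads or more in each library (median absolute residual 0.00029 log2). Normalised reads are counts over these factors, with Col-0 replicate 1 at 1. Shared symbols had given 14 rows a wrong locus, reassigned by position; all 9 members had the start and end of the TAIR10.1 annotation, as had 98.51% of 5297 nuclear genes. Counts were tested in edgeR 4.0.16 (R 4.3.3, limma 3.58.1), using those factors, the edgeR expression filter and Benjamini-Hochberg adjustment over 4773 genes. The SE is the size of the log2 fold change divided by the root of F. The step was also run on simulated counts in which most genes were unchanged. All listed genes were selected as changed, so that simulation does not match these data. Since the authors chose the listed genes on these libraries, adjusted p-values hold within the tables only. Precision rests on 3 libraries per group. The edgeR p-values set a difference against the spread between libraries of a group. For each gene that spread is estimated partly from all genes in the fit. Alternatives were TMM factors, DESeq2 1.42.0, no filter, a replicate block and leaving out libraries. Named genes were all members, the listed genes of the other lists and the 3 nearest to PTAC7 and to PTAC14, of which 1 is not reported here; the members, lists, motifs and rules were chosen with earlier results of these data known. Python 3.11.15, numpy 2.4.6, pandas 2.3.3, scipy 1.17.1, biopython 1.88 and matplotlib 3.10.9 were used.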

Additional observations from a re-analysis of the deposited data

How the results depend on the processing

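All 9 listed members were called lower and 0 higher, and of the 32 other plastid transcription genes 18 lower and 1 higher, in each of 12 alternatives: TMM factors, DESeq2 size factors, DESeq2 with the recovered factors, no low-count filter, the replicate block, each library left out, and epl1ab-labelled replicate 1 alone (chosen after seeing the data; only Col-0 libraries then supply the spread). In the alternatives other than replicate 1 alone, 1758 to 1806 of all genes were called lower. The authors had listed 1806 genes lower on these same libraries, so the unchanged counts are not a separate test. Factors from the listed genes by TMM and by DESeq2 shifted log2 fold changes of all tested genes by -0.47 and -1.11, which deepens every fall. The members then ran from -2.81 to -1.49 and from -3.44 to -2.13. With each library left out in turn, members called lower stayed at 9 and no member's log2 fold change moved by more than 0.12. With the replicate block 9 members were called lower, between -2.35 and -1.02; the block leaves share differences as they are by construction, and its smallest exact p with 3 pairs is 0.25. Same-numbered libraries deviated from their group means with correlations from -0.57 to -0.03 over 2539 genes. Col-0 replicate 1 correlated at -0.57, 0.57 and 0.55 with epl1ab-labelled replicates 1, 2 and 3. Such values can follow the difference of epl1ab-labelled replicate 1 from replicates 2 and 3. They therefore cannot show whether same-numbered libraries came from 1 experiment. The share of PTAC12, -0.06 points in the main comparison, ran from -0.35 to 0.19 points with single libraries left out; it turned positive without Col-0 replicate 2 (0.19) and without epl1ab-labelled replicate 1 (0.004), and the groups were apart without Col-0 replicate 3 (-0.35). Without PTAC7 in the sum it was -1.77 points. Other shares kept their sign with coding length, without PTAC7 and with each library left out, but without PTAC7 those of PTAC10, PTAC3, PTAC2, PTAC14 and FLN1 moved most relative to their size, from -0.39 to -1.77, -0.95 to -2.25, -1.22 to -2.05, -3.12 to -4.83 and 2.41 to 1.56 points. The share of PTAC10 also moved to -0.23 points without Col-0 replicate 1 and to -0.25 without epl1ab-labelled replicate 2. Genes that missed the authors' thresholds, TRXZ included, set the limit on what the tables can show.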
